A study of Homo sapiens with 6 samples.

Results

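The bone morphogenetic protein (BMP) genes described here are 3 ligands (BMP2, BMP4 and BMP7), the 3 SMADs that BMP receptors activate (SMAD1, SMAD5 and SMAD9) and 3 inhibitors of the pathway (SMAD6, SMAD7 and BAMBI). They were chosen by name, as the features whose platform annotation carries one of these symbols. The choice was made with earlier results of these data known. All 9 were measured, out of 14884 genes in the table, and each had 1 feature. The arrays held RNA from spheroids of SW620, a colorectal cancer line from a lymph node metastasis, on 3 arrays, and of SW480, a colorectal cancer line from a primary tumour, on 3 arrays. Both lines grew as spheres without serum and with added growth factors. Such cultures are used to enrich tumour-initiating cells, and the study asked how that compartment differs between the lines. The submitters call the 3 arrays of a line technical replicates, so each p-value here measures the spread between such arrays and not between separate cultures. Each line is a single line, with no adherent culture or sorted fraction beside it.

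BMPs are secreted dimers of the TGF-beta superfamily that bind receptor kinases on the cell surface. The activated receptor phosphorylates SMAD1, SMAD5 and SMAD9, which join the common partner SMAD4, enter the nucleus and switch on target genes such as the ID genes. The inhibitory SMADs are themselves induced by the signal: SMAD6 acts mainly against the BMP branch, SMAD7 against the BMP and TGF-beta branches alike. BAMBI is a pseudoreceptor that lacks a kinase domain and blocks receptor complexes. In the intestinal crypt, BMP signalling promotes differentiation and is held low at the base, where the stem cells lie.

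The upstream sequences of the 3 inhibitors are shown because these genes are known feedback targets of SMADs, and because their differences between the lines ran in opposite directions. RefSeq promoter windows (build GRCh38.p14) matched 7 of the 9 genes, in 15 windows, with none used here for BMP2 and BMP7. The 250 bases before the start are printed 5′ to 3′, and for SMAD7 the window is that of the outermost of its 3 listed starts. Capitals mark GTCT, the core of the SMAD-binding element, or its reverse complement AGAC, and GGCGCC, a GC-rich element bound by BMP-activated SMADs.
SMAD6 (chr15:66701986-66702235, plus strand): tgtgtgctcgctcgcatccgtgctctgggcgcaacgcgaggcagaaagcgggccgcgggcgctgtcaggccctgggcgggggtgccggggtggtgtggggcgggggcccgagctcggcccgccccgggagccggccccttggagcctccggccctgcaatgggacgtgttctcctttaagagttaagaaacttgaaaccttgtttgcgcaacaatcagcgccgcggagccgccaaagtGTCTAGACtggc
SMAD7 (chr18:48950966-48951215, minus strand): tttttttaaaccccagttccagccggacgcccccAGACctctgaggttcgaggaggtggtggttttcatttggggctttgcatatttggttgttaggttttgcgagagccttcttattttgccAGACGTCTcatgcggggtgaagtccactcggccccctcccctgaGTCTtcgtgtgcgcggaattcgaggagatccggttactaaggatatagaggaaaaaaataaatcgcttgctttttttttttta
BAMBI (chr10:28677271-28677520, plus strand): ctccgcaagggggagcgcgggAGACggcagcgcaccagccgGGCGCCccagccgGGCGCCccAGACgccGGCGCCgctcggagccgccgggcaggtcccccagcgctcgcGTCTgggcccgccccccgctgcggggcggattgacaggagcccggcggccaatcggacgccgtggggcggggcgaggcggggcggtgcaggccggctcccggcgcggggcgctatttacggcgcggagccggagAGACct
The SMAD6 window holds GTCTAGAC, the palindromic form of the SMAD-binding element, which begins 12 bases before the start and consists of GTCT and AGAC side by side. That palindrome occurs on either strand in 0.182% of 35116 windows of the same length, and SMAD6 was the only 1 of the 15 windows with it. GTCT occurs in 77.5% of all windows and in 12 of the 15, so its presence separates little. GGCGCC occurs in 16.4% of all windows and in 4 of the 15, among them BAMBI with 3 matches in a window of 81.2% G and C. The windows are not separate genes, since SMAD1 alone has 5 of the 15 and some of these overlap. A match describes the letters and does not show that a factor binds there.

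All 9 genes differed between the lines by limma's moderated test with Benjamini-Hochberg adjustment over all 14884 genes, called at an adjusted p below 0.05. SMAD6, BMP4 and SMAD1 were higher in SW620, and BMP2, SMAD5, SMAD9, BMP7, SMAD7 and BAMBI were lower. In the same fit 35.6% of all genes were called, 16.0% as higher and 19.5% as lower, so a call alone is common between these lines. A call with at least a 2-fold difference was made for 7 of the 9 genes, against 6.07% of all genes. Each of the 9 was brighter than the median feature in at least 1 line; of all 9908 such genes, 50.1% were called and 9.12% were called with at least a 2-fold difference. The arrays of the lines did not overlap for any of the 9, and for 45.7% of all genes. The median difference over the 9 genes was -1.02 on the log2 scale and that over all genes was 0.0132. Since the 9 genes were chosen with earlier results of these data known, these comparisons with all genes are descriptions and not tests. Values are log2 RMA levels, differences are SW620 minus SW480 with the moderated standard error (SE), and n is 3 arrays per line throughout.

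**Figure D1:**
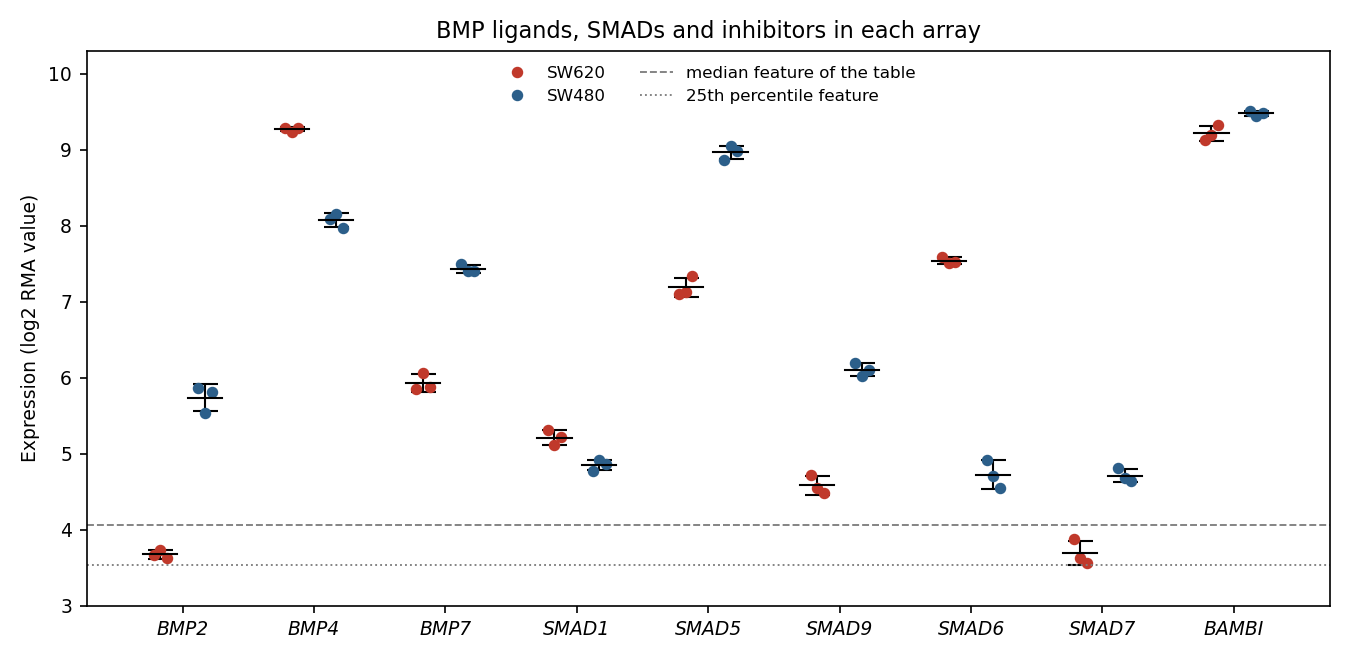
Log2 RMA expression (vertical axis) of each gene in each array, SW620 in red and SW480 in blue, with the mean and SD (n = 3 each) in black. The lines do not overlap for any gene, and the SW620 levels of BMP2 and SMAD7 lie between the 25th percentile feature (3.53) and the median feature (4.07).

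Among the ligands, BMP2 and BMP7 were lower in SW620 and BMP4 was higher. BMP2, a ligand that drives bone formation and is made in the differentiated part of the colonic epithelium, read 3.66, 3.74 and 3.63 in SW620, against 5.86, 5.53 and 5.81 in SW480. All SW620 arrays lay near the dim end of the table, below the median feature of 4.07. The difference was -2.06 (SE 0.0988, adjusted p = 3.55e-09, limma), which is 4.17-fold lower in SW620, and 1.23% of all genes had a larger difference in either direction. A fold against so dim a level is uncertain, since RMA can understate it. BMP7, a ligand best known from kidney development, read 5.85, 6.06 and 5.88 in SW620, against 7.49, 7.41 and 7.40 in SW480. Both lines stood above the median feature, and the arrays were well separated. BMP7 was 2.83-fold lower in SW620 (-1.50, SE 0.0880, adjusted p = 2.47e-08, limma).

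BMP4, the closest relative of BMP2, went the other way. It read 9.28, 9.23 and 9.28 in SW620, against 8.09, 8.15 and 7.97 in SW480. The levels were high in both lines, and the SW620 arrays nearly coincided. BMP4 rose 2.29-fold in SW620 (1.20, SE 0.0841, adjusted p = 1.43e-07, limma). Only the size and direction in each gene can be compared here, since the brightness of different features is not a measure of their relative amounts.

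The remaining ligands of the family were called about as often as other genes. Of 19 measured BMP and GDF ligands outside the 9 genes, 3 rose and 3 fell, and the other 13 missed the threshold, so that 6 of 19 were called, against 35.6% of all genes. The median difference of the list was 0.0314. BMP5, the relative of BMP6 and BMP7, read 8.04, 8.19 and 8.29 in SW620, against 5.99, 5.72 and 5.74 in SW480. All SW620 arrays were far above all SW480 arrays, a 5.11-fold rise (2.35, SE 0.102, adjusted p = 1.35e-09, limma). BMP6, which acts in iron sensing through hepcidin, read 3.75, 3.57 and 3.43 in SW620, against 6.10, 5.78 and 5.82 in SW480. It was 4.98-fold lower in SW620 (-2.32, SE 0.109, adjusted p = 3.11e-09, limma). All SW620 arrays lay below the median feature, around the 25th percentile feature of 3.53, so this fold is as uncertain as that of BMP2. BMP8B fell by 0.71 and GDF1 by 0.61 on the log2 scale. BMP8B has a near-identical copy, BMP8A, which differed by -0.29 (adjusted p = 0.0587, limma), and GDF1 shares a transcript with CERS1, so both values may mix genes. GDF15, a stress-induced member of the superfamily, and BMP10, a heart ligand that was dim in both lines, completed the 6 called and rose by 0.43 and 0.27; these 2 are named after their values were seen.

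Of the receptors that read these ligands, only ACVRL1 and ENG were analysed here, out of 10 listed, and neither passed limma's test or had an unadjusted p below 0.05. ENG, a co-receptor of endothelial cells, averaged 4.08 in SW620 and 4.22 in SW480 (-0.15, adjusted p = 0.249, limma). Both levels are close to the median feature. The receptors BMPR1A, BMPR1B and BMPR2 were not analysed here, so the receiving side of the pathway is not described.

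The receptor-activated SMADs did not move as a group. SMAD5, which carries the BMP signal into the nucleus, read 7.10, 7.13 and 7.33 in SW620, against 8.87, 9.04 and 8.98 in SW480. Every SW620 array was far below every SW480 array, in a range where both lines are bright. SMAD5 was 3.42-fold lower in SW620 (-1.77, SE 0.0929, adjusted p = 8.02e-09, limma; 95% interval -1.97 to -1.57). SMAD5-AS1, an antisense transcript that overlaps the start of SMAD5 and has a feature of its own, averaged 3.58 in SW620 and 3.76 in SW480 (-0.17, adjusted p = 0.255, limma). The antisense arrays overlapped between the lines and were dim in both.

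SMAD9, the third BMP-activated SMAD and a weaker activator than the others, read 4.72, 4.54 and 4.49 in SW620, against 6.19, 6.03 and 6.11 in SW480. It was 2.88-fold lower in SW620 (-1.53, SE 0.0910, adjusted p = 2.95e-08, limma). SMAD1, which shares most of its sequence and function with SMAD5, read 5.31, 5.11 and 5.21 in SW620, against 4.77, 4.91 and 4.87 in SW480. The SW620 arrays were higher without overlap, but by little. SMAD1 rose 1.28-fold (0.36, SE 0.0875, adjusted p = 0.00569, limma; 95% interval 0.17 to 0.55), and 26.4% of all genes had a larger difference in either direction.

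SMAD4, the partner that the activated SMADs need, read 3.82, 4.10 and 3.64 in SW620, against 3.65, 4.31 and 4.08 in SW480. Its arrays overlapped, were spread more widely than those of the 9 genes, and lay around the median feature in both lines. The difference of -0.16 did not pass the test (adjusted p = 0.471, limma; 95% interval -0.50 to 0.17), which does not show equal levels. In the list of the TGF-beta branch with SMAD4, 10 of 22 genes were measured, of which 3 fell, 0 rose and 7 did not pass limma's test, with a median of -0.10. At an unadjusted p below 0.05, 3 were lower and 1 higher. Over all genes, 19.5% were called lower and 16.0% higher after adjustment. Of the 10 measured, 5 were below the median feature in both lines. The TGF-beta-activated SMAD2 and SMAD3 differed by -0.0472 and 0.18, and neither passed. The genes that fell were LTBP4, LTBP1 and LTBP2, named as latent TGF-beta binding proteins, by 1.04, 0.64 and 0.31 on the log2 scale. The call for LTBP2 (adjusted p = 0.0289, limma) was lost without any of 4 single arrays, with adjusted p-values up to 0.113, and with the mean of its features, at an adjusted p of 0.121.

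The inhibitors gave the widest contrast among the 9 genes. SMAD6, the inhibitor that favours the BMP branch, read 7.59, 7.51 and 7.52 in SW620, against 4.92, 4.70 and 4.54 in SW480. The SW620 arrays lay close together and far above the SW480 arrays, which were more spread out but still above the median feature. SMAD6 rose 7.03-fold in SW620 (2.81, SE 0.101, adjusted p = 2.4e-10, limma; 95% interval 2.60 to 3.03), the highest of the 9 differences and rank 35 from the top among 14884 genes. The platform annotation ties this feature to a non-coding transcript record of the SMAD6 gene, so how much of the signal is the protein-coding form was not tested. SMAD7, the inhibitor that acts on both branches, read 3.87, 3.63 and 3.56 in SW620, against 4.81, 4.68 and 4.64 in SW480. All SW620 arrays were below the median feature and all SW480 arrays above it. SMAD7 was 2.03-fold lower in SW620 (-1.02, SE 0.0982, adjusted p = 2.82e-06, limma), a fold that rests on a dim level. SMAD6 and SMAD7, whose upstream windows are printed above, differed in opposite directions.

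BAMBI, the pseudoreceptor and also a known target of Wnt signalling in colorectal tumours, was bright in both lines. It read 9.13, 9.19 and 9.32 in SW620, against 9.51, 9.45 and 9.49 in SW480. The arrays did not overlap, but the gap between the nearest of them was small. BAMBI was 1.20-fold lower in SW620 (-0.27, SE 0.0847, adjusted p = 0.0259, limma; 95% interval -0.45 to -0.0825), and 35.3% of all genes had a larger difference in either direction. The call was lost on leaving out any array other than SW620 replicate 3. Without the others in turn, the difference ran from -0.28 to -0.22 and the adjusted p from 0.0515 to 0.0963, with 5 arrays in each fit. The remaining 8 genes passed in all 14 alternatives each, several of which could not change their differences.

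**Figure D2:**
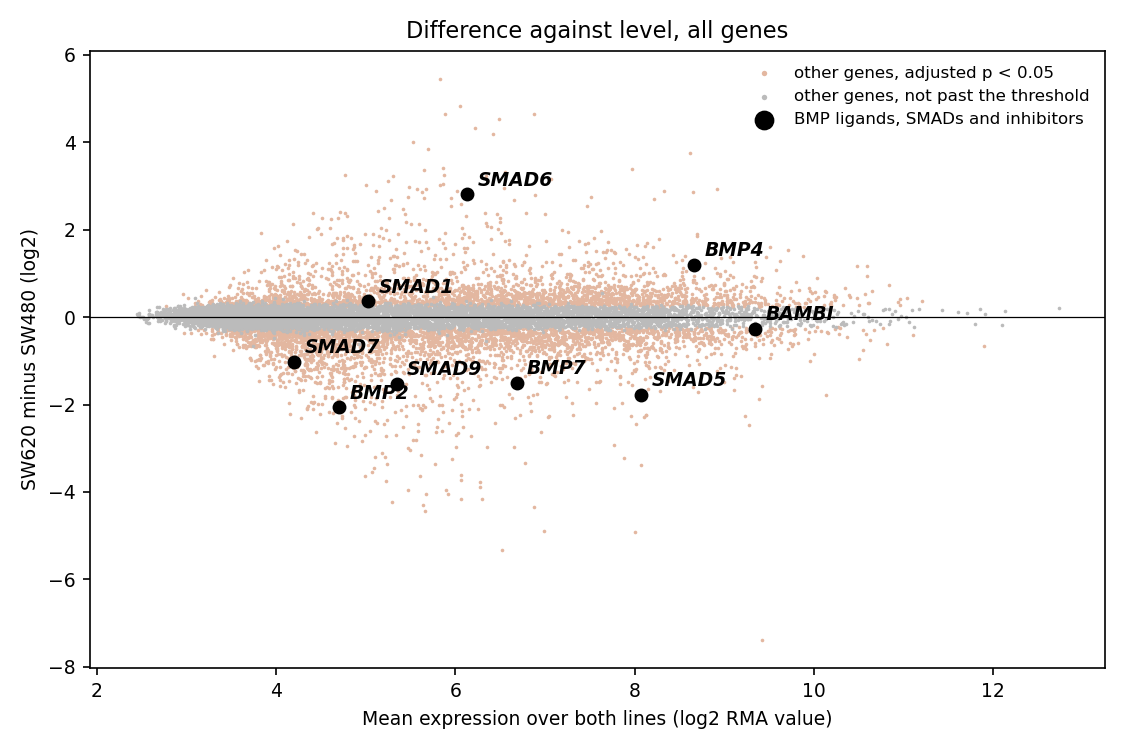
Difference SW620 minus SW480 (log2, vertical axis) against the mean level over both lines (log2 RMA, horizontal axis) for 14884 genes, with the 9 genes in black. SMAD6 (2.81) and BMP2 (-2.06) lie at the edges of the cloud, while SMAD1 (0.36) and BAMBI (-0.27) lie within it.

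Genes known as BMP targets mostly fell in SW620. Of 15 measured, out of 20 listed, 10 fell, 1 rose and 4 did not pass, beside 19.5% of all genes lower and 16.0% higher. Only 2 of the 15 were below the median feature in both lines. Of all genes brighter than it in at least 1 line, 50.1% were called in either direction, against 11 of these 15. The median was -0.63, against 0.0132 over all genes. This list too was chosen with earlier results of these data known, so its counts are a description and not a test. RUNX2, a transcription factor of bone formation, was 3.81-fold lower (-1.93, SE 0.0865; 4.01 ± 0.102 in SW620 and 5.94 ± 0.0528 in SW480, SD). TBX3, a T-box repressor, was 2.87-fold lower and averaged 4.64 in SW620 and 6.16 in SW480. The homeobox genes DLX3 and MSX1 were 2.84-fold and 2.10-fold lower. All of these also respond to other signals. GATA3, named after its value was seen, was the gene that rose (0.53, adjusted p = 0.000397, limma). The direct targets ID1, ID2, ID3 and ID4 were not analysed here, so the list does not hold the readout most often used for the pathway.

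Secreted antagonists and modulators of BMP changed in a few genes only. Of 17 measured, out of 24 listed, 3 fell, 0 rose and 14 did not pass limma's test, with a median of 0.0440. At an unadjusted p below 0.05, 5 were lower and 0 higher. Over all genes, 19.5% were called lower and 16.0% higher after adjustment. Of the 17, 8 were below the median feature in both lines. Of all genes at or below it in both lines, 6.53% were called. CRIM1, a membrane protein that binds BMPs and slows their release, read between 3.89 and 4.03 in SW620, against 6.38 to 6.46 in SW480. It was 5.48-fold lower (-2.45, SE 0.0825, adjusted p = 1.24e-10, limma), with all SW620 arrays just below the median feature, which leaves this fold uncertain too. TWSG1, which binds BMPs together with chordin, was 2.32-fold lower (7.83 ± 0.259 in SW620 and 9.05 ± 0.0436 in SW480, SD). FSTL3, an activin-binding protein, fell by 0.48 on the log2 scale. The classical antagonists NOG and GREM1, named after their values were seen, differed by 0.0440 and 0.11 and did not pass (adjusted p = 0.766 and 0.460, limma).

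Inside the cell, regulators of SMADs and their receptors were called at a rate near that of other bright genes. Of 17 measured, out of 30 listed, 5 rose, 3 fell and 9 did not pass, with a median of 0.0391. That is 8 of 17 called, against 35.6% of all genes and 50.1% of those brighter than the median feature in at least 1 line. SMURF2, a ligase that works with SMAD7 and marks SMADs and receptors for degradation, read 9.51, 9.44 and 9.39 in SW620, against 10.44, 10.45 and 10.48 in SW480. It was 2.01-fold lower (-1.01, SE 0.0803, adjusted p = 4.72e-07, limma), and the related ligase WWP1 fell by 0.79. WWP2, of the same ligase family, read 8.59, 8.44 and 8.48 in SW620, against 7.07, 7.01 and 7.06 in SW480. That was a 2.74-fold rise (1.46, SE 0.0822, adjusted p = 1.72e-08, limma). TAB2, an adaptor of the kinase TAK1, rose by 0.63.

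**Figure D3:**
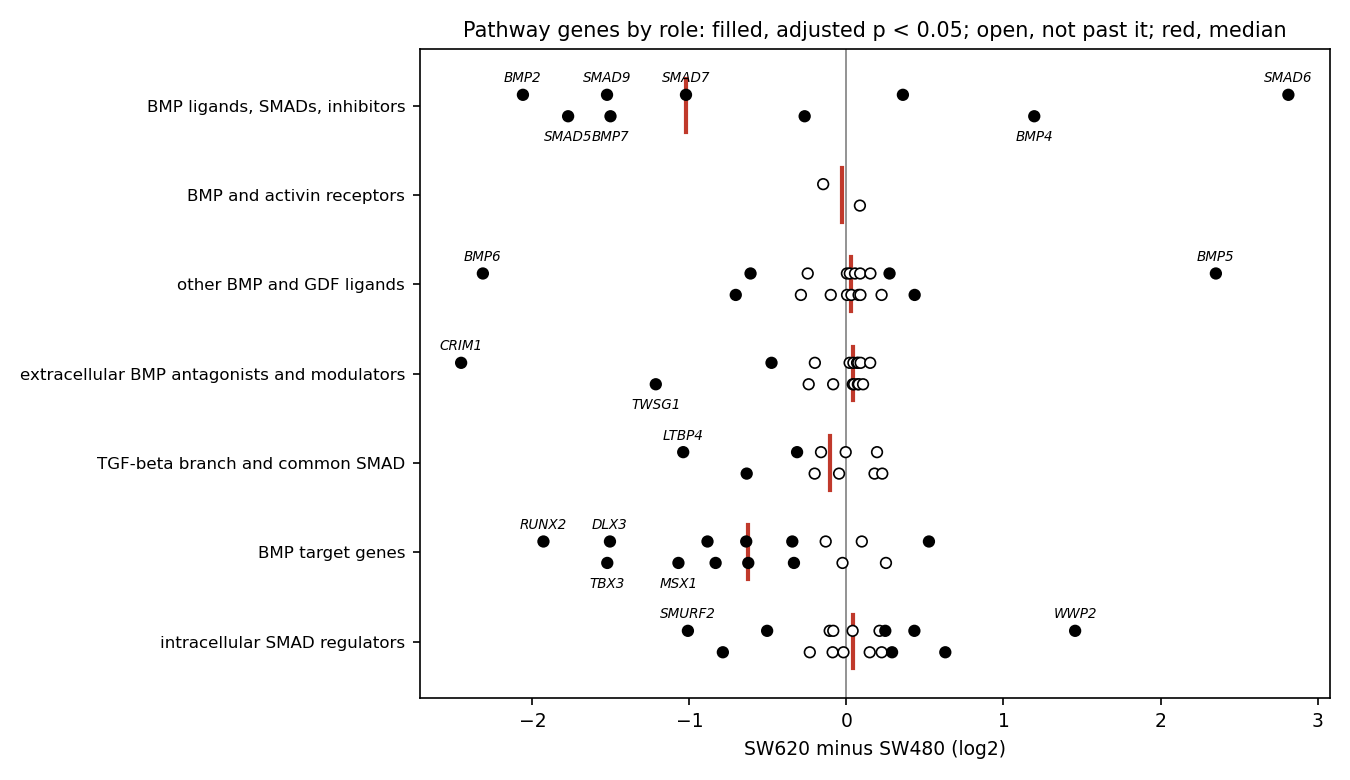
Difference SW620 minus SW480 (log2, horizontal axis) of each measured gene, in rows by role, with filled points for an adjusted p below 0.05 and a red bar at each row's median. The BMP targets have their median at -0.63, and the other rows below the top one have theirs between -0.10 and 0.0440.

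Position on the chromosomes did not put the 9 genes together, apart from BMP2 and BMP7, which both lie on chromosome 20. Of the 10 measured genes nearest SMAD5 on chromosome 5, 5 on each side, 0 passed limma's test after adjustment. At an unadjusted p below 0.05 there were 3, and the differences ran from -0.29 to 0.23. All but HNRNPA0 (8.37 in SW620 and 8.47 in SW480), named after its value was seen, were below the median feature in both lines. Of all genes at or below that feature in both lines, 6.53% were called, so the lack of calls around SMAD5 says little about its position. Around SMAD1 on chromosome 4, 1 of 10 neighbours was lower and 0 were higher, the same 0 at an unadjusted p below 0.05. Around SMAD6 on chromosome 15, 4 neighbours were higher and 1 lower, the largest at 0.75, well under the 2.81 of SMAD6. Its next measured neighbour after it is SMAD3, at 0.18. Around SMAD7 on chromosome 18, 4 were lower and 1 higher, and around SMAD9 on chromosome 13, 4 were lower and 0 higher, again 0 without adjustment. Around BMP7, 5 were lower and 1 higher, and TFAP2C, a transcription factor gene next to BMP7 named after its value was seen, differed by -2.42, more than BMP7 itself. Around BMP2 and BAMBI, 4 neighbours were higher and 1 lower in each case. The lower neighbour of BMP2 was LRRN4, named after its value was seen. LRRN4 differed by -1.89 (adjusted p = 2.75e-09, limma), nearly as much as BMP2, while the largest of the higher neighbours of BMP2 differed by 0.64. Among the higher neighbours of BAMBI, MKX, named after its value was seen, differed by 2.75, against -0.27 for BAMBI. Around BMP4 on chromosome 14, 3 were higher and 3 lower. Over all genes, 16.0% were called higher and 19.5% lower, so calls among 10 neighbours are common. The counts around each gene were not tested against these shares. No DNA copy number was measured, so its part in these differences was not tested.

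**Figure D4:**
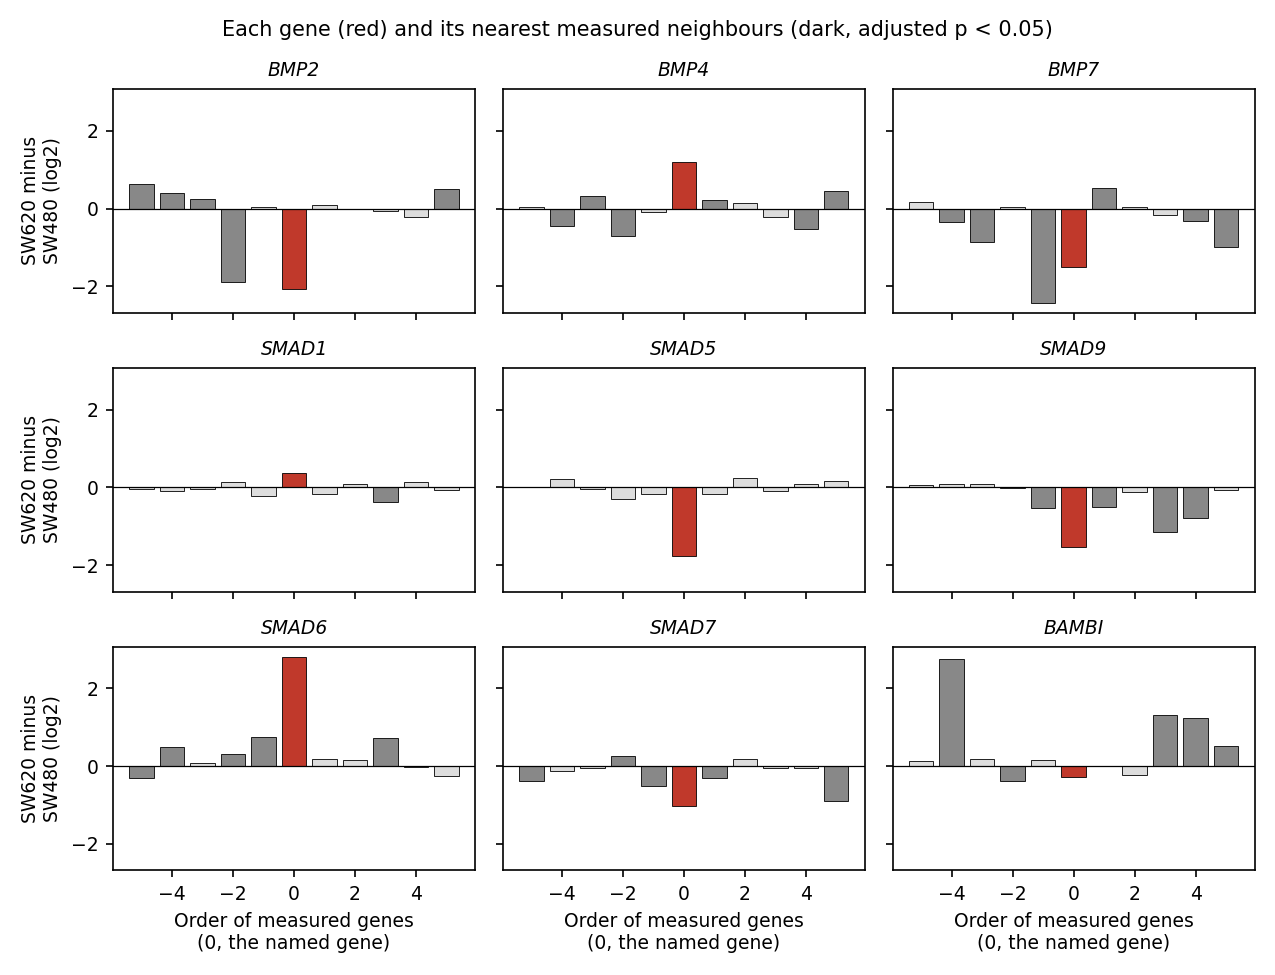
Difference SW620 minus SW480 (log2, vertical axis) of each of the 9 genes (red) and of its nearest measured neighbours in chromosome order (horizontal axis, dark where the adjusted p is below 0.05). The neighbours of SMAD5, nearly all dim in both lines, lie between -0.29 and 0.23, while BMP7 has a neighbour at -2.42.

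The genes with the pattern nearest to SMAD6, by the Euclidean distance between centred log2 values over the 6 arrays, were AGMO (0.256), TM4SF1 (0.270) and ARHGAP18 (0.277). They lie on chromosomes 7, 3 and 6, and differed by 2.85, 2.69 and 2.74. The nearest to BMP2 were ZNF831 (0.117), RAPGEF5 (0.199) and LHFPL6 (0.202), with differences of -2.06, -2.11 and -2.02. ZNF831 shares chromosome 20 with BMP2. With 2 lines, this measure mostly finds genes with a difference of like size.

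The identity of the cultures was read from marker genes. Of 11 measured colorectal epithelial markers, 5 were higher and 1 lower in SW620, and EPCAM, an epithelial adhesion molecule, averaged 9.61 in SW620 and 9.71 in SW480. The summed linear signal of these markers was 5121 to 5432 in SW620 and 4635 to 4883 in SW480. CDX2, the intestinal identity factor, averaged 4.68 in SW620 and 6.22 in SW480, and KRT20 and CDX1 were near or below the median feature in both lines. Of 3 measured fibroblast markers, LUM was 9.34-fold higher in SW620, while DCN was dim (3.26 in SW620 and 3.09 in SW480) and THY1 differed by -0.0300. Their summed linear signal was 260.5 to 301.5 in SW620 and 49.1 to 64.7 in SW480. That contrast followed LUM alone (7.95 in SW620 and 4.73 in SW480), since DCN and THY1 did not pass limma's test, so it is no measure of fibroblasts. Its part in the differences of the BMP genes was not tested. The collagen markers on that list were not analysed here. The 5 leukocyte markers summed to 185 to 191 in SW620 and 182 to 190.4 in SW480, with CD68 higher, LAPTM5 lower and the other 3 not passing. The 5 endothelial markers were all below the median feature in both lines, and 0 passed limma's test, with or without adjustment. Across features, which are not independent replicates, r was 0.988 to 0.992 between arrays of a line and 0.963 to 0.965 between the lines. In such bulk samples, fewer cells of a type and less RNA per cell cannot be told apart.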

How the data were processed

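The values used are log2 expression levels that the authors deposited. The submitters' processing notes name Partek and RMA, without versions or settings. Values ran from 1.99 to 13.9, and base 2 was assumed on that ground, since no source used here names the base. RMA subtracts background, equalises the arrays and summarises probes. Of 53616 features, 16098 had exactly 1 gene symbol in the platform annotation, 0 had several and 37518 had none here. All 16098 matched a human gene table (GRCh38.p14), used for names and gene order. For 779 genes with more than 1 feature, the brightest on average stood for the gene, leaving 14884 genes. Dim genes were kept.

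For each gene a two-sided limma test (version 3.58.1, R 4.3.3; lmFit, then eBayes) gave the difference SW620 minus SW480, without covariates, with Benjamini-Hochberg adjustment over all genes at 0.05. The fit was tested on simulated data. Precision is limited by the small number of arrays, 3 per line. The 9 genes and the pathway and marker lists were chosen with earlier results of these data known. The rule for named genes took all 9 genes, SMAD4 and the ID genes, up to 4 called genes with the largest difference per list (or the smallest p where none was called), and the 3 nearest patterns to the highest and lowest of the 9. Alternatives were another normalization, 2 centrings, a filter on dim genes, another variance model, the mean of features, each feature on its own, a replicate block, and leaving out each array.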

Additional observations from a re-analysis of the deposited data

How the results depend on the processing

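The 14 alternatives kept the direction of all 9 genes, and kept the call of every one except BAMBI. Several of them could not move a difference. With 1 feature per gene, averaging the features or fitting each on its own returns the same values. The filter on dim genes, the other variance model and the replicate block also left the differences unchanged and could alter only the p-values. SMAD6 ran from 2.72 to 2.91, BMP2 from -2.16 to -2.00, SMAD1 from 0.31 to 0.41 (highest adjusted p = 0.0276) and SMAD7 from -1.11 to -0.96. Leaving out single arrays, BAMBI ran from -0.32 to -0.22 and lost its call in 5 of 6 fits, so the number of lower genes among the 9 was 5 or 6. Over all genes, 2388 higher and 2905 lower became 2686 and 2685 on centring to the 75th percentile feature. With the replicate number as a block, 2353 genes were higher and 2862 lower, and the 9 genes kept their calls (3 higher, 6 lower). Arrays with the same number did not deviate together (r = -0.00889, -0.0234 and -0.0119). No pairing by number was seen in the values, which cannot show whether such arrays were handled together. The counts for the pathway lists stayed within 1.5 times in each setting; for example, the BMP targets called ran from 10 to 12. The mean levels of BMP2, SMAD7, BMP6, CRIM1, RUNX2, BMP8B, GDF1 and LTBP1 in SW620 are below the median feature, which limits their folds. LTBP1 was below it in SW480 as well (3.34 in SW620 and 3.98 in SW480). No detection calls or raw intensities were used.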
